A study of Mus musculus with 10 samples.

Results

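The transcripts described here are 10 long noncoding RNAs of brain, chosen by name from the gene table: Malat1, Neat1, Miat, Meg3, Rian, Mirg, Peg13, Kcnq1ot1, Snhg11 and Gas5. All 10 were among the 54532 genes of the table, and all 10 were among the 17665 genes that passed the filter on low counts. The mice were homozygous knockouts of Slc20a2 (Slc20a2-HO), which encodes a phosphate transporter, and both groups carried this genotype. FTY720, a modulator of sphingosine-1-phosphate receptors, was injected into the peritoneum of 6 mice for 12 weeks, at a dose of 0.5 mg/kg and starting when they were 1.5 months old; the 4 placebo mice received the solvent dimethyl sulfoxide alone. RNA was taken from 1 part of the brain of each perfused mouse while the rest was fixed, and 1 library was sequenced for each. Each name carries a letter (F or P) for the treatment, then a digit whose meaning the labels do not give: 3 in 6 mice (3 FTY720 and 3 placebo) and 1 in 4 mice (3 FTY720 and 1 placebo). By Xist, which is expressed from the inactive X chromosome of females, 4 mice were female (464 to 989 CPM, against at most 4.13 in the other 6, in which Y-linked genes summed to 142 to 267 CPM): 2 of 6 FTY720 and 2 of 4 placebo mice, or 3 of 6 with the digit 3 and 1 of 4 with the digit 1. These 4 carry a 9 and the other 6 a 6 as the first digit of the mouse number. The members were compared between the treatments, and between the digits with treatment kept in the model.

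Long noncoding RNAs are transcribed and processed like messenger RNAs but act as RNA. Some hold nuclear bodies together, such as the speckles, where splicing factors gather, and the paraspeckles, which form on Neat1. Others are expressed from only the maternal or the paternal chromosome (imprinted), and others carry small nucleolar RNAs (snoRNAs), which guide the modification of ribosomal RNA, in their introns. In brain many of them are expressed mainly in neurons.

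Between 14772745 and 18303981 counts were assigned per mouse, with a median of 16653895. The knocked-out gene, Slc20a2, had 89 to 294 counts in each mouse, and its level did not overlap between the digits (at most 9.43 CPM in any digit 1 mouse, at least 11.5 CPM in every digit 3 mouse); the whole-gene count does not separate exons. F3-612 and P3-612 share a mouse number but not their counts, with a chi-square per degree of freedom of 115 over 5000 genes, against at least 16.1 for every one of the 45 pairs. The digit separated the libraries by brain region markers: Gabra6, a receptor subunit of cerebellar granule cells, was at 0.0590 to 0.240 CPM (counts scaled to a common library size) in the digit 1 mice and at 130.0 to 172 CPM in the digit 3 mice, and Hoxb5, a hindbrain gene, had 0 counts in the digit 1 mice and 43 to 99 in the digit 3 mice. All 4 granule cell markers and all 4 Purkinje cell markers were higher with the digit 3, 5 of 6 cortex and hippocampus markers were lower, and all 5 microglia markers were lower. Of 8 neuron markers 0 were higher and 2 lower, Syn1 and Slc17a7. Among all genes tested 13.9% were called higher and 14.4% lower (edgeR, adjusted p under 0.05). The summed granule cell markers ranged from 10.5 to 14.8 CPM with the digit 1 and from 571 to 720 CPM with the digit 3, and the summed microglia markers from 249 to 300 CPM and from 163 to 232 CPM. The part of these differences in the results on the digit was not tested. In tissue RNA, fewer cells of a type and less RNA per cell cannot be told apart.

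Sequences show how some of these RNAs are built. Malat1 and Neat1 are neighbouring genes on the minus strand of chromosome 19, and their ends fold into a triple helix in which an A-rich tail lies between U-rich stretches. The 100 bases of each GENCODE M21 transcript up to its last A-rich match are given below, 5′ to 3′, as DNA letters, with the A-rich letters AAAAGCAAAA and its reverse complement, the U-rich letters TTTTGCTTTT, in capitals. They lie at chr19:5795982-5796081 for Malat1 and chr19:5824708-5824807 for Neat1 (GRCm38, minus strand, inside the exon of each gene). The Neat1 stretch is the annotated end of the transcript, whereas the annotation of Malat1 continues past it.
Malat1: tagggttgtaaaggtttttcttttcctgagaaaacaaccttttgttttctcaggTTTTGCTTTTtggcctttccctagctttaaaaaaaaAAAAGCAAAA
Neat1: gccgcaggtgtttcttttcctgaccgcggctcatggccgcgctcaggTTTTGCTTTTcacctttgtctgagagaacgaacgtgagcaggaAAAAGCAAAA
The A-rich letters were taken as the last 10 bases of the Neat1 transcript, so their match at its end was fixed in advance. Both strings, read on the transcript strand, were present once in each of these 2 RNAs and together in none of the other 8. Of the longest transcripts of 55450 annotated genes, 0.0649% held both.

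Miat is known for repeats of the letters ACTAAC, which are the core of the branch point used in splicing. Its longest transcript (Miat-205, 9163 bases) held 11 copies on its own strand, 1.20 per kilobase. Among the longest transcripts of the others the next was Gas5 at 0.391, and Malat1, Rian and Peg13 held none. The densest 150 bases, at chr5:112217319-112217468 (GRCm38, minus strand, within 1 exon), held 4 copies, given in capitals.
Miat: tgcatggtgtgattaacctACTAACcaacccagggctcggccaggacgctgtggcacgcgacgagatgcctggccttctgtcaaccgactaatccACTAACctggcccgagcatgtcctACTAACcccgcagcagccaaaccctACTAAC
Of 681707 windows of the same length over the longest transcripts of all genes, 1.71% held at least 1 copy and 6 windows held 4 or more. Those windows were cut end to end, whereas the Miat window was picked as the densest over all start positions. The comparison is therefore not like for like.

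Promoters, from 250 bases before to 50 bases after the start site, were listed for 8 of the 10 members in RefSeq (GRCm38.p6); Neat1 and Peg13 had no entry. They were searched on both strands for TGACGTCA, the cyclic AMP response element, and for its part TGACG, which lies within the longer motif. TGACGTCA was found in 1 of the 8, Meg3, and in 1.79% of 32851 promoters. TGACG was found in 3 of the 8, Malat1, Meg3 and Kcnq1ot1, and in 20.8% of all promoters. Meg3 and Malat1 are shown as the members that held TGACG and were called higher with the digit 3, and capitals mark TGACG on either strand. Rian, Mirg and Snhg11 were also called higher but held no TGACG, and Kcnq1ot1, which held it, was not called. A link between these letters and the digit was not tested. The Meg3 promoter is chr12:109540746-109541045 (plus strand) and the Malat1 promoter chr19:5802623-5802922 (minus strand).
Meg3: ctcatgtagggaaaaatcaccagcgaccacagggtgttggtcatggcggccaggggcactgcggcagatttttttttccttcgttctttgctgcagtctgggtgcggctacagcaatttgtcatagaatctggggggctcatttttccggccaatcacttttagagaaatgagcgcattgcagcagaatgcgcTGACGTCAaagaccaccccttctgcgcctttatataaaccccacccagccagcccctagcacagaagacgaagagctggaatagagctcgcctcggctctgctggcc
Malat1: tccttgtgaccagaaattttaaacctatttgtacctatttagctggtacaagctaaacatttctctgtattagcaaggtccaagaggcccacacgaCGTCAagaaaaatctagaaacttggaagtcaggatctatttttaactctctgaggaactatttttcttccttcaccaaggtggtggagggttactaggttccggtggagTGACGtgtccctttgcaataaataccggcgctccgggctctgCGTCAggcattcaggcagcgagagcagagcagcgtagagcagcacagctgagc
A match describes these letters and does not show that a factor binds there.

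Per length, the members spanned a wide range. In FPKM (fragments scaled to exon length and library size, as deposited), Snhg11 was at 160.5 to 355, Meg3 at 81.3 to 207 and Malat1 at 85.8 to 351 across the 10 mice. These 3 ranked between 36 and 597 in every mouse when all genes of the table were ordered by FPKM. Peg13 was at 51.9 to 78.9 FPKM, Rian at 26.6 to 45.3, Miat at 14 to 27.7 and Gas5 at 11.5 to 19.3. Neat1 was at 3.80 to 10 FPKM and Mirg at 2.82 to 5.36. Kcnq1ot1 was at 0.213 to 0.650 FPKM and ranked between 16343 and 19211, so that it was not abundant per length. The ranges of Snhg11, Malat1 and Meg3 overlapped, as did those of Rian and Miat, of Miat and Gas5, and of Neat1 and Mirg. Counting error was small beside these ranges: the widest 95% exact binomial interval of a share in 1 mouse reached 11.1% of the share to either side (Mirg), and it covers counting error only. Snhg11 is annotated as protein-coding in the table although it is known as a snoRNA host.

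Together the 10 RNAs took 0.748% ± 0.224 (SD, n = 6) of the counts with FTY720 and 0.777% ± 0.191 (SD, n = 4) with placebo. By digit, the sum was 0.892% ± 0.128 (SD, n = 6) with 3 and 0.561% ± 0.0808 (SD, n = 4) with 1. The digit 1 mice ranged from 0.443% in F1-622 to 0.623% in F1-624, and the digit 3 mice from 0.691% in P3-612 to 1.03% in P3-904, with no overlap. Meg3, Snhg11 and Malat1 made up most of the sum in every mouse.

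**Figure D1:**
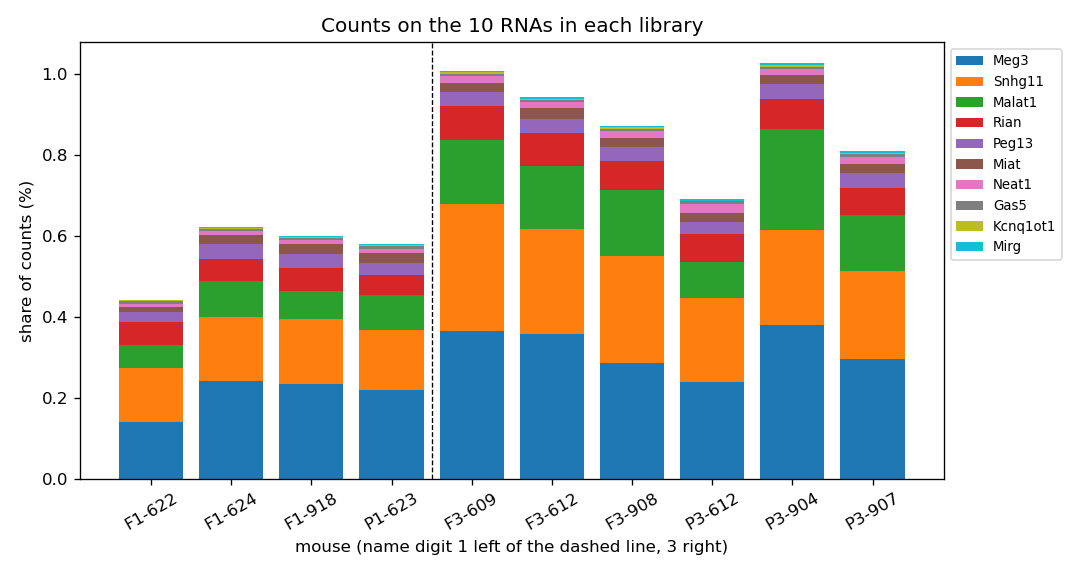
Stacked bars of the share of each library (percent of counts, y axis) taken by each of the 10 RNAs in each mouse (x axis), digit 1 mice left of the dashed line and digit 3 mice right. The tops of the bars lie between 0.443% and 0.623% left of the line and between 0.691% and 1.03% right of it.

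FTY720 against placebo did not separate the members. In edgeR's quasi-likelihood test none of the 10 had an unadjusted p under 0.05, a level that 2.61% of all genes tested (461 of 17665) passed. After Benjamini-Hochberg adjustment in edgeR no gene was called (0%), the adjusted p of all 10 members being 0.99992, and DESeq2 called none either. FTY720 and placebo mice overlapped in CPM for all 10 members, while 0.804% of all genes did not overlap. The members' median log2 fold change was -0.11 and that of all genes tested was 0.00; 4 members were above 0 and 6 below.

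Neat1, Kcnq1ot1 and Malat1 had the lowest estimates. In the 6 FTY720 mice Neat1 averaged 119 ± 36.2 CPM (SD) and in the 4 placebo mice 158 ± 46.6 CPM (SD); its log2 fold change was -0.40, with a 95% interval from -0.93 to 0.12 in edgeR. Malat1 was at 1144 ± 447 CPM with FTY720 and 1404 ± 746 CPM with placebo, a log2 fold change of -0.30 (interval -1.04 to 0.45), and of -0.13 with the leading digit of the mouse number, which separates the sexes, as a covariate. Malat1 turned to 0.13 when the placebo mouse P3-904, which had the highest level, was left out. Kcnq1ot1 was at -0.35 (interval -0.94 to 0.24) and at 0.03 without the same mouse. The other estimates lay between -0.15 for Miat and 0.08 for Snhg11. Their intervals reached from -0.56 (Meg3) to 0.55 (Snhg11). These intervals include the spread between the digits, and those with the digit as a covariate are given next.

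Since 3 of 4 placebo mice but 3 of 6 FTY720 mice had the digit 3, the treatments were also compared within the digits. With the digit as a covariate, 2256 genes (12.8%) had an unadjusted p under 0.05 in edgeR, and among the members only Rian did, with a log2 fold change of 0.18 (SE 0.08, unadjusted p = 0.046, adjusted p = 0.38762); with the gene length trend removed as well it was at 0.0093 (unadjusted p = 0.94). Among the 6 digit 3 mice alone, where 7.27% of genes did, only Snhg11 did: it took 0.314%, 0.259% and 0.264% of the counts in F3-609, F3-612 and F3-908 and 0.206%, 0.234% and 0.218% in P3-612, P3-904 and P3-907. Each FTY720 mouse was above each placebo mouse, as for 6.42% of all genes in CPM, with a log2 fold change of 0.32 (SE 0.11, unadjusted p = 0.0198, adjusted p = 0.65439 in edgeR). With all 10 mice and the digit as a covariate, Snhg11 was at 0.21 (SE 0.10, unadjusted p = 0.0518), and at 0.12 with the gene length trend removed as well (unadjusted p = 0.165 in edgeR). Neither RNA passed the adjustment. The lowest estimates of the treatment comparison were smaller in size here: with the digit as a covariate Neat1 was at -0.23 (interval -0.47 to 0.01), Kcnq1ot1 at -0.22 (interval -0.71 to 0.27) and Malat1 at -0.11 (interval -0.60 to 0.37), and among the digit 3 mice alone Neat1 was at -0.21, Kcnq1ot1 at -0.20 and Malat1 at -0.02. With the digit as a covariate and the gene length trend removed as well, they were not smaller for Neat1 and Kcnq1ot1: Neat1 was at -0.45 (unadjusted p = 0.0382, adjusted p = 0.37317 in edgeR), Kcnq1ot1 at -0.37 and Malat1 at -0.16. Of the other members with the digit as a covariate alone, Meg3 was at 0.04 (interval -0.31 to 0.39) and Miat at -0.15 (interval -0.49 to 0.19), and changes within such intervals were not detectable with these mice. In the digit 1 mice, Snhg11 took 0.132%, 0.158% and 0.162% with FTY720 and 0.149% in the placebo mouse. The difference in the effect of FTY720 between the digits was examined by the interaction term, which rests on 1 placebo mouse with the digit 1 whose spread is assumed to be that of the other groups, and no member was called (0% of all genes; 1.95% had an unadjusted p under 0.05, none of the members among them). For Snhg11 that term was 0.30 (SE 0.21, adjusted p = 0.99994 in edgeR).

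**Figure D2:**
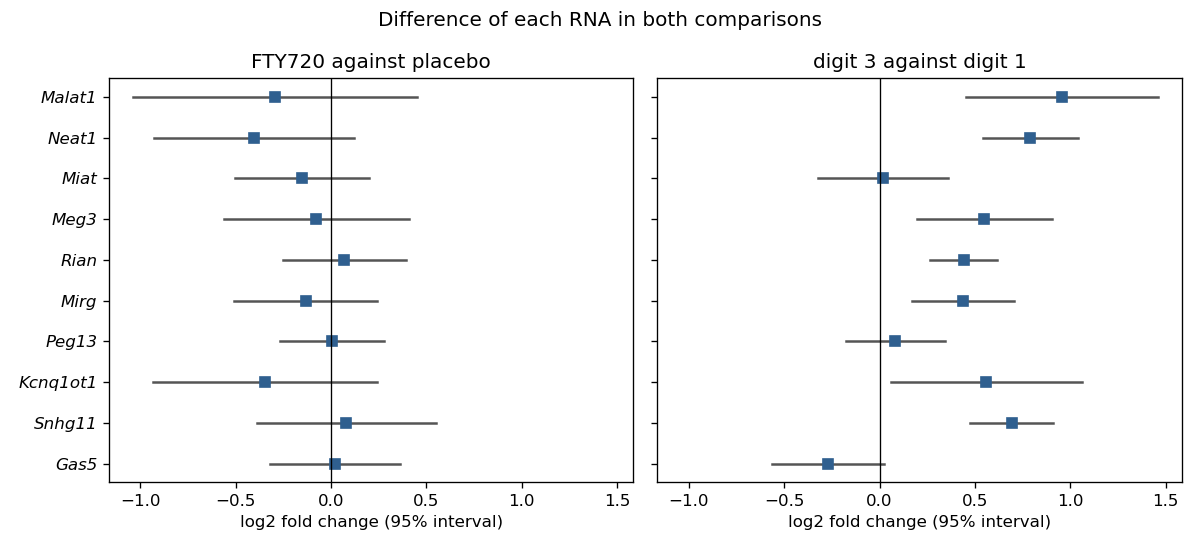
Log2 fold change of each RNA (squares, x axis) with its 95% interval from edgeR (lines), for FTY720 against placebo (left) and for the digit 3 against 1 (right). All 10 intervals on the left include 0; on the right Malat1, Neat1, Meg3, Rian, Mirg, Kcnq1ot1 and Snhg11 lie above 0.

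Between the digits, 6 of the 10 RNAs were higher in the mice with the digit 3: Malat1, Neat1, Snhg11, Meg3, Rian and Mirg (edgeR, adjusted p under 0.05). Of all genes tested 13.9% were called higher. None of the members was called lower, against 14.4% of all genes. Noncoding classes without the members also held more genes called higher than lower: 103 and 22 of 598 lincRNAs (median 0.17) and 54 and 11 of 292 processed transcripts (median 0.22), against 2046 and 2394 of 14783 protein-coding genes (median -0.03). For 4 members, Neat1, Rian, Mirg and Snhg11, no digit 1 mouse reached the CPM of any digit 3 mouse; 7.8% of all genes did not overlap in this direction, and 6.41% in the other, which none of the members did. The members' median log2 fold change was 0.50 and that of all genes was -0.01. Kcnq1ot1, Miat, Peg13 and Gas5 were not called. With the leading digit of the mouse number as a covariate the same 6 members were called, with adjusted p from 0.00104 (Neat1) to 0.0441 (Meg3) in edgeR. With the gene length trend removed 2 of the 6 calls held, Malat1 and Snhg11, when 12.2% of all genes were called higher. With each mouse left out in turn 4 to 8 members were called: 4 without F3-609 and 4 without P1-623, and 8 without P3-612, where Kcnq1ot1 was also called higher and Gas5 lower.

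**Figure D3:**
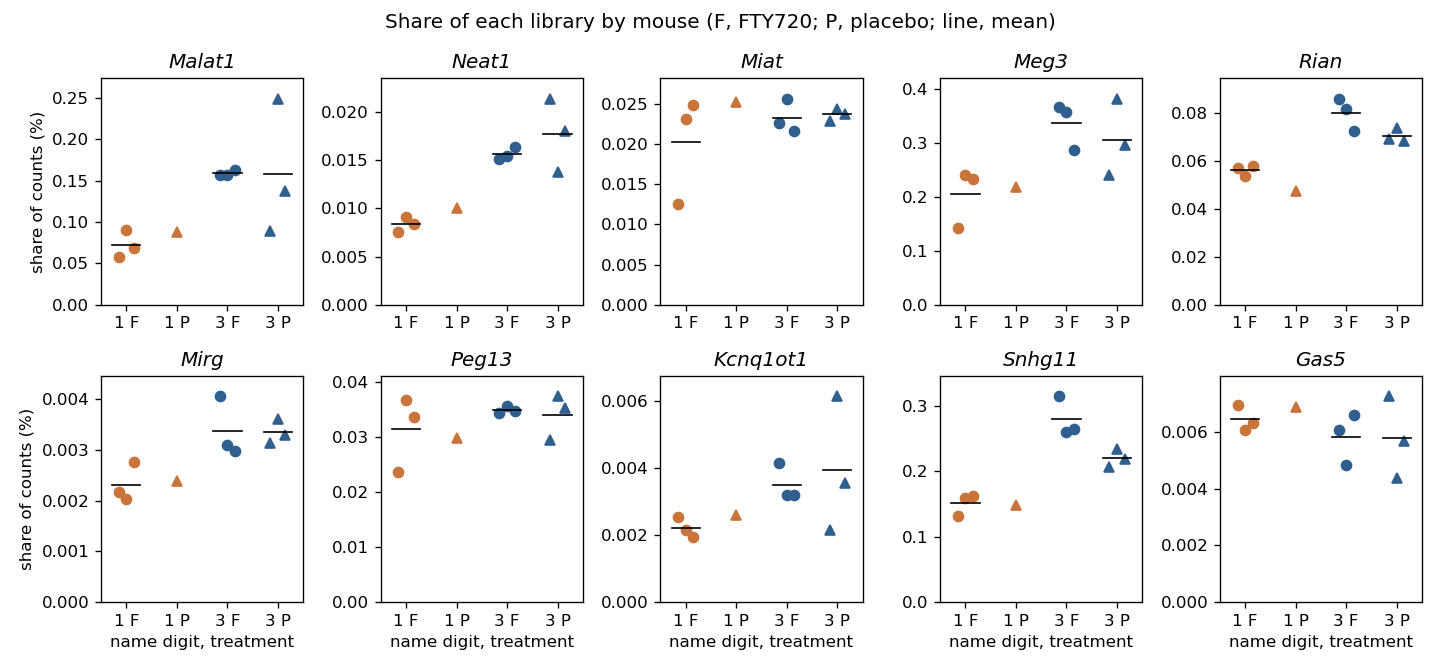
Share of counts (percent, y axis) of each RNA in each mouse, by digit and treatment (x axis; F, FTY720; P, placebo); circles are FTY720 mice, triangles placebo mice, and lines are group means. Neat1, Rian, Mirg and Snhg11 lie higher in all 6 digit 3 mice than in all 4 digit 1 mice, and Miat in F1-622 (0.0125%) lies apart from the rest.

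Among the RNAs of nuclear bodies, Malat1 (ENSMUSG00000092341, chr19:5795690-5802672, minus strand), which gathers at splicing speckles, took 0.0577%, 0.0907%, 0.0687% and 0.0875% of the counts in the digit 1 mice F1-622, F1-624, F1-918 and P1-623. In the digit 3 mice it took 0.157% in both F3-609 and F3-612, 0.163% in F3-908, 0.0887% in P3-612, 0.249% in P3-904 and 0.137% in P3-907. P3-612 lay among the digit 1 mice and P3-904 far above all others. The log2 fold change was 0.96 (SE 0.23, adjusted p = 0.00997 in edgeR), and the difference in mean share had p = 0.0238 in a two-sided exact permutation test over 210 splits. The edgeR call held with each mouse left out, at 0.81 without P3-904, but the exact permutation test gave p = 0.0595 without F1-622, F1-918 or P1-623.

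Neat1 (ENSMUSG00000092274, chr19:5824708-5845478, minus strand), the scaffold of paraspeckles, took 0.00760%, 0.00908%, 0.00843% and 0.0100% in F1-622, F1-624, F1-918 and P1-623. It took 0.0151%, 0.0155% and 0.0164% in F3-609, F3-612 and F3-908, and 0.0214%, 0.0138% and 0.0180% in P3-612, P3-904 and P3-907. The groups did not overlap, and the log2 fold change was 0.79 (SE 0.12, adjusted p = 0.00053 in edgeR); the call was lost with the gene length trend removed (0.45, adjusted p = 0.101). The exact permutation test gave p = 0.00476, the smallest that 210 splits can give. Neat1 was highest in P3-612, the digit 3 mouse with the least Malat1, and lowest among the digit 3 mice in P3-904, the mouse with the most Malat1. Per length, Malat1 was 12.4 times Neat1 in P3-612, 53.6 times in P3-904 and 22.6 to 30.9 times in the other 8 mice.

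**Figure D4:**
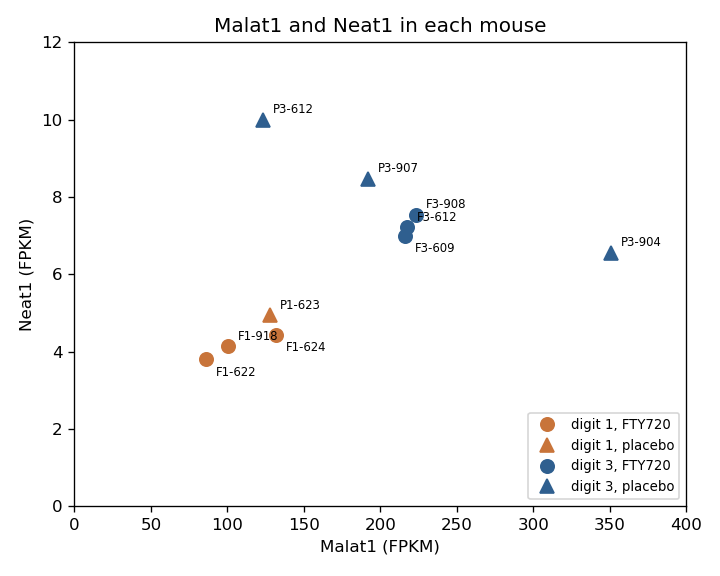
Malat1 (x axis) against Neat1 (y axis), both in FPKM, in each mouse; colour gives the digit and shape the treatment. The 4 digit 1 mice lie at 3.80 to 4.93 FPKM of Neat1, and among the digit 3 mice P3-612 has 124 FPKM of Malat1 with 10 of Neat1 and P3-904 has 351 with 6.55.

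Miat (ENSMUSG00000097767, chr5:112213228-112229395, minus strand), a nuclear RNA of neurons, took 0.0125% in F1-622 and between 0.0216% and 0.0256% in the other 9 mice. Its log2 fold change between the digits was 0.02 (interval -0.32 to 0.36), and it was -0.14 without F1-622.

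The 3 maternally expressed RNAs of the imprinted Dlk1-Dio3 region on chromosome 12 were each called on the counts as deposited, and none of the 3 calls held with the gene length trend removed (adjusted p = 0.097 for Meg3, 0.638 for Rian and 0.0668 for Mirg in edgeR). That removal used the length of all annotated exons, which is longer than the longest transcript of each of these 3. Meg3 (ENSMUSG00000021268, chr12:109541001-109571726, plus strand), the first of them, took 0.142%, 0.241%, 0.233% and 0.219% in F1-622, F1-624, F1-918 and P1-623. It took 0.365%, 0.357% and 0.287% in F3-609, F3-612 and F3-908, and 0.240%, 0.381% and 0.296% in P3-612, P3-904 and P3-907. Only P3-612 lay within the digit 1 range, and F1-622 lay below all others. The log2 fold change was 0.55 (SE 0.16, adjusted p = 0.0256 in edgeR). The call was lost when F3-609, F3-612 or P1-623 was left out, with an adjusted p of up to 0.0748.

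Rian (ENSMUSG00000097451, chr12:109603940-109661716, plus strand), whose introns hold C/D box snoRNAs, took 0.0475% to 0.0580% in the digit 1 mice and 0.0682% to 0.0858% in the digit 3 mice. Mirg (ENSMUSG00000097391, chr12:109729764-109749460, plus strand), a host of many miRNAs, took 0.00203% to 0.00276% and 0.00298% to 0.00406%. Both sets were separate, each with p = 0.00476 in the exact permutation test. The log2 fold changes were 0.44 for each (SE 0.08 and 0.12, adjusted p = 0.00257 and 0.0204 in edgeR). Mirg lost its call without F1-624, F3-609 or P1-623, with an adjusted p of up to 0.0809, and in the FTY720 mice alone (0.47, adjusted p = 0.0665 in edgeR). Per length, Meg3 was 2.50 times Rian in F1-622 and 3.49 to 5.21 times in the other mice, since Meg3 but not Rian was low in F1-622. Of 7 tested protein-coding neighbours in the region, 0 were higher and 3 lower with the digit 3, against 13.9% and 14.4% of all genes: Dlk1, a paternally expressed Notch-like protein, at -0.58 (SE 0.12), Begain, a synaptic scaffold-associated protein, at -0.68 (SE 0.12), and Wars, a tRNA synthetase, at -0.30 (SE 0.08).

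Of the other imprinted RNAs, Peg13 (ENSMUSG00000106847, chr15:72805600-72810324, minus strand), expressed from the paternal copy within Trappc9, took 0.0236% in F1-622 and 0.0295% to 0.0374% in the other mice. Its log2 fold change between the digits was 0.08 (interval -0.18 to 0.34). Trappc9 itself, a trafficking protein gene, was lower with the digit 3 (-0.31, SE 0.08, adjusted p = 0.0117 in edgeR), and the neighbour Kcnk9, a maternally expressed potassium channel gene, was higher (0.65, SE 0.14, adjusted p = 0.00655). Per length Peg13 was 4.73 to 6.99 times Trappc9 in the digit 1 mice and 6.29 to 7.97 times in the digit 3 mice.

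Kcnq1ot1 (ENSMUSG00000101609, chr7:143203458-143296549, minus strand), the antisense RNA that silences genes around Kcnq1 on the paternal copy, took 0.00195% to 0.00261% in the digit 1 mice and 0.00216% to 0.00614% in the digit 3 mice. P3-612 lay among the digit 1 mice and P3-904 was the highest. The log2 fold change was 0.56 (SE 0.23, adjusted p = 0.0869 in edgeR), and it passed without P3-612 (0.65, adjusted p = 0.00967), in the FTY720 mice alone (0.59, adjusted p = 0.0245) and without a filter on low counts (0.54, adjusted p = 0.000857), but turned to -0.20 with the gene length trend removed (adjusted p = 0.406 in edgeR). Of 8 tested neighbours, 0 were higher and 2 lower, against 13.9% and 14.4% of all genes: Cdkn1c, a cell cycle inhibitor, at -0.69 (SE 0.17) and Tssc4 at -0.49 (SE 0.17).

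The snoRNA hosts differed from each other. Snhg11 (ENSMUSG00000044349, chr2:158375638-158386145, plus strand), an RNA of neurons, took 0.132% to 0.162% in the digit 1 mice and 0.206% to 0.314% in the digit 3 mice, with no overlap. The log2 fold change was 0.69 (SE 0.10, adjusted p = 0.00051 in edgeR; p = 0.00476 in the exact permutation test). The edgeR call held with each mouse left out. Gas5 (ENSMUSG00000053332, chr1:161034422-161038539, plus strand), a growth-arrest RNA whose short exons flank snoRNAs, took 0.00607% to 0.00697% in the digit 1 mice and 0.00437% to 0.00726% in the digit 3 mice. Its log2 fold change was -0.27 (interval -0.56 to 0.03), and it was called without P3-612, the digit 3 mouse with the most Gas5, at -0.33 (adjusted p = 0.0468 in edgeR). Of 14 other snoRNA hosts tested (13.9% of all genes were called higher and 14.4% lower), 1 was higher, Snhg14 at 1.08 (SE 0.17), and 2 were lower, Snhg6 at -0.59 (SE 0.19) and Zfas1 at -0.56 (SE 0.19).

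Proteins that work with the nuclear RNAs were counted in the same fit, in which 13.9% of all genes were called higher and 14.4% lower. Of 13 paraspeckle proteins 3 were higher and 0 lower: Tardbp at 0.52 (SE 0.08), Cpsf6 at 0.61 (SE 0.10) and Sfpq, which binds Neat1, at 0.49 (SE 0.17). Of 14 nuclear speckle and splicing proteins 7 were higher and 2 lower; Srsf1 was at 0.55 (SE 0.09) and Son, a speckle scaffold, at 0.66 (SE 0.15), both higher. Of 21 other long noncoding RNAs tested, 10 were higher and 3 lower. Mir124a-1hg, a host of the neuronal miR-124, was at 1.20 (SE 0.10), Ftx, near Xist on the X chromosome, at 0.91 (SE 0.11) and Firre at 0.73 (SE 0.13), and 6330403K07Rik was lower at -0.78 (SE 0.15). Of 26 imprinted protein-coding genes 4 were higher and 6 lower; Nnat was at -1.02 (SE 0.17) and Peg3 at 0.56 (SE 0.15). With FTY720 none of these related genes was called in edgeR.

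Levels also moved with gene length among the mice. The length used was that of all annotated exons of a gene. It exceeds the longest transcript for some members, such as Rian (18234 against 8089 bases), Meg3 (18089 against 14548) and Mirg (7292 against 3822). A removal by transcript length was not tested. The slope of log2 level on gene length ran from -0.31 per 10-fold in F1-622, -0.30 in P1-623 and -0.28 in P3-612 to 0.28 in F3-612, 0.29 in F3-609 and 0.30 in P3-904. Loci of the provisional annotation class TEC took 0.105% to 0.125% of the counts in the digit 1 mice and 0.129% to 0.217% in the digit 3 mice. When the trend on gene length was removed from each library, 2 of the 6 calls held in edgeR, against 12.2% of all genes called higher: Malat1 at 0.82 (SE 0.19, adjusted p = 0.00629) and Snhg11 at 0.52 (SE 0.08, adjusted p = 0.00063). Neat1 was then at 0.45 (adjusted p = 0.101), Mirg at 0.29 (adjusted p = 0.0668), Meg3 at 0.20 (adjusted p = 0.097) and Rian at 0.08 (adjusted p = 0.638). Kcnq1ot1, the longest at 93092 bases, turned to -0.20 and Miat to -0.16. Called genes then split into 2159 higher and 3526 lower (38.0% higher, against 49.1% without the removal), and the median of all genes was -0.06.

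**Figure D5:**
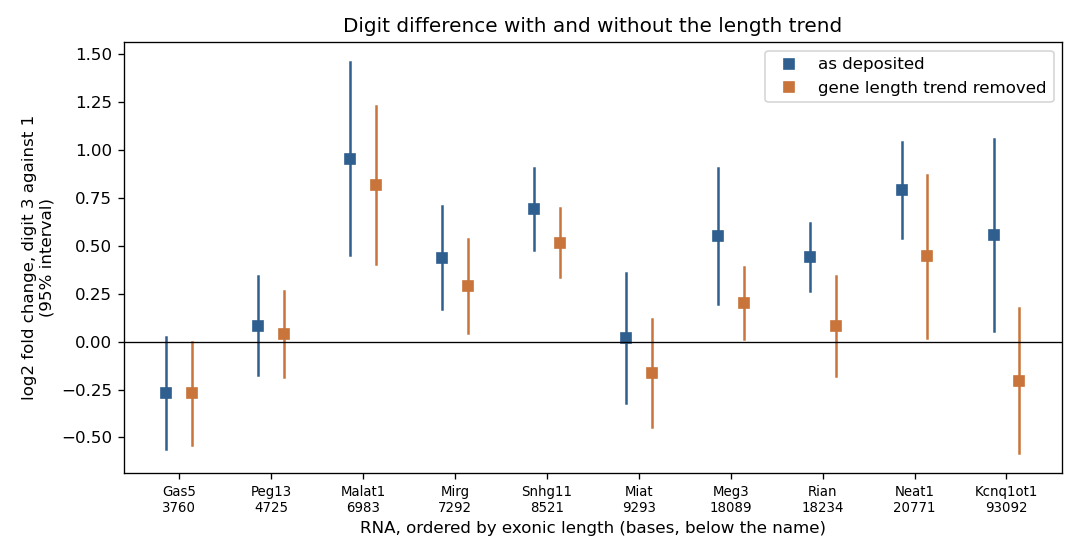
Log2 fold change for the digit 3 against 1 (squares, y axis) with its 95% interval (lines) for each RNA, ordered by exonic length (x axis), on the counts as deposited (blue) and with the gene length trend removed (orange). Malat1 moves from 0.96 to 0.82 and Snhg11 from 0.69 to 0.52, while Kcnq1ot1 moves from 0.56 to -0.20.

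Some members share their interval with other genes, and since the strand setting of the counting is not stated, reads of antisense partners cannot be told apart. Malat1 and Neat1 overlap 3 listed genes each, all with 0 counts. How reads in shared exons were assigned is not stated either. Low or 0 counts on an overlapping gene therefore do not show that few reads came from it. Gas5 overlaps Zbtb37 on the opposite strand, which had 81 to 699 counts per mouse. Zbtb37 was at 1.0 between the digits and was not called (SE 0.38, adjusted p = 0.066 in edgeR). The exons of Gas5 do not overlap those of any opposite-strand gene, but 17.8% of its exonic bases lie in snoRNA or miRNA genes of its own strand. Of the exonic bases of Miat 24.3% lie in exons of Gm26953 on the opposite strand, which had 2 to 10 counts per mouse. For Meg3 6.79% lie in exons of Gm26906 and for Malat1 6.49% in exons of Gm37376, both on the opposite strand with 0 counts. Kcnq1ot1 is 1 unspliced exon across Kcnq1, of which Kcnq1 and 4 small genes on the opposite strand cover 1.20% of the bases; Kcnq1 had 6 to 19 counts. Peg13 lies in an intron of Trappc9 on the same strand, with no exonic base shared, and reads of unspliced Trappc9 RNA cannot be told apart from those of Peg13. Rian and Mirg overlap 19 and 15 listed genes, mostly snoRNAs and miRNAs, whose counts amounted to 1.07% and 6.56% of those of the host.

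The genes whose log2 CPM followed a member most closely over the 10 mice, after the digit means were removed, are given as a description among 12247 genes. They were Sept3 (listed under a date-like symbol; r = 0.97) and Tnrc6c for Malat1, Htra2 (r = 0.97) and Pkdcc for Neat1, and Nbeal2 (r = 0.99) for Meg3. Acap3 and Scn4b followed Miat, Luc7l and Ets1 Rian, Gm14204 and Rassf8 Mirg, Chrna7 and Agrn Peg13, D10Wsu102e and Cep89 Kcnq1ot1, Rbms1 and Aaed1 Snhg11, and Ctxn2 and Cd63-ps Gas5. D10Wsu102e, like Kcnq1ot1, has a long gene model (123179 bases), and Ctxn2 and Cd63-ps (1028 and 875 bases) are shorter than Gas5. Among the members themselves, Meg3 and Peg13 followed each other most closely (r = 0.87), and Malat1 and Gas5 went most in opposite directions (r = -0.76), followed by Neat1 and Rian (r = -0.75). The mice share the length differences given above.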

How the data were processed

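The authors deposited counts per gene and mouse, without normalization, and FPKM values made from these counts, the gene length and a library total that differed from the column sum. The submitters' processing notes name CASAVA 1.8, fastp, HISAT2 2.0.5, featureCounts 1.5.0-p3, DESeq2 1.20.0 and the builds GRCm38 and mm10; libraries were made with the NEBNext Ultra kit, and the strand setting is not given in the sources used here.

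Counts were filtered with filterByExpr on treatment, scaled by TMM and then compared in edgeR (version 4.0.16, quasi-likelihood test, under R 4.3.3) over all 17665 genes that passed, with Benjamini-Hochberg adjustment over these genes. FTY720 was compared with placebo without a covariate, and the digit 3 with 1 with treatment in the model. Shares of the library were compared by two-sided exact permutation over 210 splits. FPKM was used for levels between genes. Intervals are 95%; each standard error was obtained from the log2 fold change and its F statistic.

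The members and the gene lists were chosen with earlier results of these data known. Named genes were the members, overlapping genes, up to 4 called genes of each list, the 2 genes most like each member, Slc20a2, Gabra6 and Hoxb5. Of these, 1 gene is not reported here. Alternatives were DESeq2 1.42.0, limma-voom (3.58.1), RLE, upper-quartile and member-free scaling, other filters, the gene length trend removed, other covariates, single digits and each mouse left out; the digit with the length trend was added after seeing the data. On simulated data, edgeR recovered 200 of 200 changed genes for FTY720 against placebo (17675 genes, 18 false calls). For the digit it recovered 200 of 200 (17604 genes, 9 false calls). The log2 fold changes set there were 1 or 2 in size. Recovery of smaller ones, such as the -0.40 of Neat1 with FTY720, was not tested. Coordinates and transcripts are from GENCODE M21, in which all 10 members had the table's exonic length.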

Additional observations from a re-analysis of the deposited data

Results flagged for a closer look

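F1-622, an FTY720 mouse with the digit 1, stood apart in 3 of the 40 groups of shares examined (Dixon's gap test; chance alone gives about 1 in 20). Miat took 0.0125% of its counts, against 0.0216% to 0.0256% in the other FTY720 mice and 0.0231% to 0.0252% in the other digit 1 mice. Peg13 took 0.0236%, against 0.0337% to 0.0367% in the other FTY720 mice. F1-622 also had the most negative slope on gene length (-0.31 per 10-fold) and the fewest counts (14772745), and the part of these in both values was not tested.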

How the results depend on the processing

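No member was called between FTY720 and placebo under any alternative; Neat1 had an unadjusted p of 0.034 in edgeR with the length trend removed (-0.55), 0.0382 with the digit and the length trend (-0.45) and 0.0398 without P1-623 (-0.55). Several small log2 fold changes changed sign. Peg13 was at -0.00202 with upper-quartile scaling and -0.000947 in limma-voom, Rian at -0.0126 with the length trend removed, Meg3 at 0.0367 and Gas5 at -0.0439 with the digit as a covariate, Gas5 at -0.0178 with the digit and the length trend together, and Meg3 at 0.12 and Gas5 at -0.0118 in the digit 3 mice. With each mouse left out, the log2 fold changes ran from -0.47 to 0.13 (Malat1), -0.170 to 0.0923 (Meg3), -0.0362 to 0.135 (Rian), -0.0516 to 0.0839 (Peg13), -0.533 to 0.0274 (Kcnq1ot1), -0.0483 to 0.185 (Snhg11) and -0.11 to 0.11 (Gas5). The differences in share, in percent of the library, ran from -0.0426 to 0.0111 (Malat1), -0.0348 to 0.0192 (Meg3), -0.00236 to 0.00634 (Rian), -0.00101 to 0.00207 (Peg13), -0.00124 to 8.17e-05 (Kcnq1ot1), -0.00687 to 0.0297 (Snhg11) and -0.000473 to 0.000489 (Gas5). The genes of unadjusted p under 0.05 numbered 461, and 1117 without a filter, 2256 with the digit, 2252 with the digit and the length trend, 1283 in the digit 3 mice, and 281 to 984 with a mouse left out (984 without P3-904). The causes were not tested.

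Between the digits, the edgeR calls of Malat1 and Snhg11 held under every alternative, while the difference in the share of Malat1 had p = 0.0595 in the exact permutation test without F1-622, F1-918 or P1-623. Leaving out a mouse brought the exact permutation test under 0.05 for Peg13 (p = 0.0357 without F1-624) and Kcnq1ot1 (p = 0.0238 without P3-612). With a mouse left out 4 to 8 members were called. With the length trend removed 2 members were called in place of 6, Kcnq1ot1 was at -0.20 and Miat at -0.16; Miat was at -0.000832 without a filter. With a mouse left out Miat ran from -0.14 to 0.12, Peg13 from -0.0152 to 0.170 and the difference in the share of Miat from -0.00095 to 0.00329. Genes called numbered 5010, 2913 in the FTY720 mice alone, and 2593 to 6046 with a mouse left out (2593 without P1-623, 2908 without F3-609). The interaction called 0 genes, and 26 without a filter on low counts. Without P1-623 it could not be fitted, since no placebo mouse then had the digit 1. No paired analysis was possible because the mice of the groups share fewer than 2 numbers.

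With 4 placebo mice, 1 of them with the digit 1, the treatment intervals of Malat1 and Kcnq1ot1 reach down to -1.04 and -0.94 on the log2 scale, and to -0.60 and -0.71 with the digit as a covariate; changes within the latter could not be seen.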
